A study of Mus musculus with 6 samples.

Results

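The genes considered here were the 7 B4galt genes (B4galt1 to B4galt7), together with Ugcg and St3gal5. They were followed in RNA-seq data of Morc3 knock-out (ko) and wild-type mouse embryonic stem (ES) cells, pluripotent cells that are grown in culture. The genes were taken by symbol, which gave 9 of the 24054 gene rows. The family was chosen by the transcript level of B4galt6, which was known to differ between ko and wild type. The ko to wild-type values of the 9 genes are therefore a description and carry no test.

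Morc3 is a nuclear ATPase of the MORC family, and the study asked what its loss does to gene expression and to the silencing of retroviral repeats. The 3 ko libraries came from the lines KO27-1, KO27-2 and KO27-3, which carry the label Morc3 knock out. The 3 wild-type libraries came from the line WT26 and are named p42, p43 and p56 here after their titles, in which the meaning of the letter p is not given. All libraries were made from feeder-independent ES cells kept on gelatin in medium with serum and LIF, with no further treatment. According to the study, each KO27 line is a single clone that was derived from WT26 by Cas9 cutting. The wild-type libraries are cultures of 1 line, so that the spread between libraries may be partly technical. The study describes transfection, selection and cloning for the ko lines and not for WT26. Effects of these steps and of the loss of Morc3 therefore cannot be told apart in the libraries used here. The study also returned Morc3 to KO27-2 and reports that gene expression was then largely normalized. Those rescue libraries were not used here, and B4galt6 was not examined in them.

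The B4galt enzymes sit in the Golgi membrane and transfer galactose from UDP-galactose onto a sugar of a growing glycan. They differ in the acceptor. In the glycolipid route, Ugcg (glucosylceramide synthase) adds glucose to ceramide, either B4galt5 or B4galt6 then adds galactose to give lactosylceramide, and St3gal5 (GM3 synthase) adds sialic acid to lactosylceramide to give the ganglioside GM3. B4galt1 to B4galt4 mainly build N-acetyllactosamine on glycoproteins and glycolipids, and B4galt7 adds the first galactose of the linker that joins glycosaminoglycan chains to proteoglycans.

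Sense-strand gene counts came to between 10740618 and 14123131 per library, and 12222 genes, all 9 of this set included, passed the filter on low counts. The median log2 fold change (ko over wild type) over the tested genes was -0.00010. Morc3, the targeted gene, was lower in every ko library, with 117 ± 33.8 CPM (counts scaled to equal library sizes; SD, n = 3) in ko and 284 ± 16.2 CPM in wild type, a log2 fold change of -1.28 (SE 0.16, adjusted p = 0.000843 by edgeR's quasi-likelihood test). KO27-1 had the lowest Morc3 transcript level. According to the study, antibody staining on western blots showed loss of Morc3 protein in the ko clones, so the transcript level is no measure of remaining protein. All 10 ES cell markers examined were detected, and none of them was called at an adjusted p under 0.01. Their summed level was 6578 to 6741 CPM in ko and 6058 to 6215 CPM in wild type. The largest differences in mean CPM were those of Dppa5a (1369 in ko, 1017 in wild type) and Zfp42 (1463 in ko, 1316 in wild type). The means of Sox2 and Tdgf1 were lower in ko. The summed level of 5 fibroblast-like feeder markers was 5.21 to 5.64 CPM in ko and 8.62 to 9.59 CPM in wild type. Nearly all of it came from Thy1, the only one of these markers that passed the filter, which fell in ko (log2 fold change -0.86, SE 0.14, adjusted p = 0.00640 by edgeR), whereas Col1a1, Col1a2 and Col3a1 were each under 1 CPM in every library and Postn was at 0. Leaving out any 1 ko library, p42 or p43 gave Thy1 a log2 fold change of -0.90 to -0.83 and an adjusted p by edgeR of 0.0181 to 0.0584. The summed level of 5 primitive endoderm markers was also lower in ko, with 1.29 to 1.85 CPM against 2.16 to 3.01 CPM in wild type, and none of them was called. The sums of the trophectoderm markers (48.3 to 60.1 CPM in ko, 51.3 to 69.2 CPM in wild type) and of the neural markers (120.2 to 130.9 CPM in ko, 122.7 to 130.95 CPM in wild type) overlapped between the groups. Nearly all of the trophectoderm sum came from Tfap2c (means 51.0 CPM in ko, 61.2 CPM in wild type), with Cdx2, Elf5 and Hand1 under 1 CPM in every library. Most of the neural sum came from Tubb3 (means 100.6 CPM in ko, 103.9 CPM in wild type), with Pax6 under 1 CPM in every library. The part of the marker differences in the results was not tested. In bulk RNA, fewer cells that express a gene and less RNA of it per cell cannot be told apart.

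B4galt6 was the gene of the set with a higher level in Morc3 ko cells. It had 76.0, 77.0 and 80.7 CPM in KO27-1, KO27-2 and KO27-3, against 25.6, 28.8 and 32.1 CPM in the wild-type cultures p42, p43 and p56. The lowest ko library was thus above the highest wild-type library, and the 3 ko lines lay close together. Behind these values stood 823, 872 and 889 counts in the ko lines and 354, 411 and 416 counts in the wild-type cultures. The means were 77.9 ± 2.45 CPM in ko and 28.8 ± 3.24 CPM in wild type (SD, n = 3 each), a ratio of 2.70. The log2 fold change of the fit was 1.43 (SE 0.09), with a 95% interval of 1.24 to 1.63. Among the tested genes, 43 had a larger log2 fold change.

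**Figure D1:**
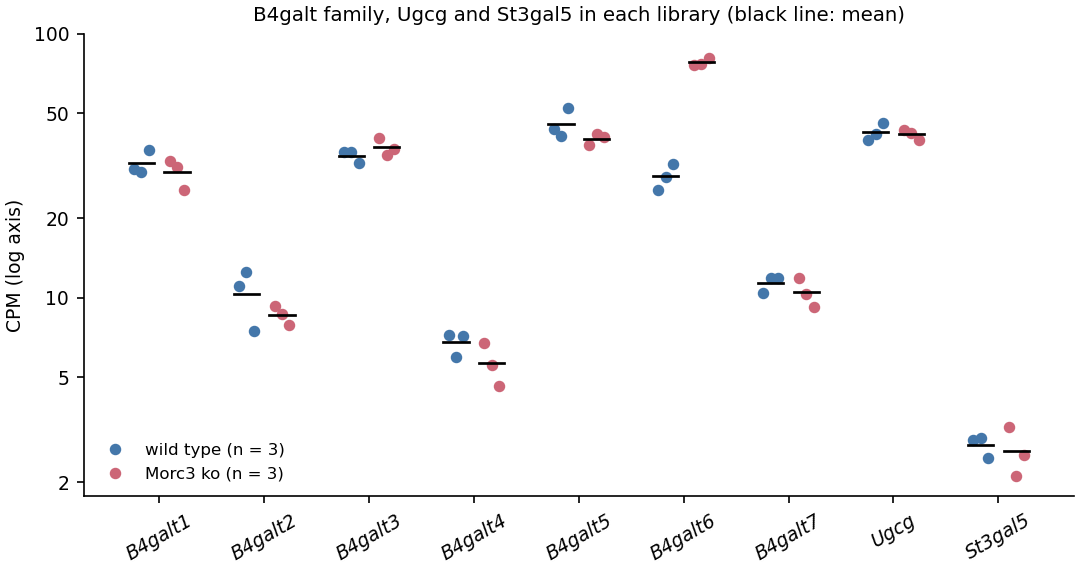
Level of each of the 9 genes in each library, in CPM on a log axis, with wild type in blue, Morc3 ko in red and the group mean as a black line. B4galt6 lies at 25.6 to 32.1 CPM in wild type and at 76.0 to 80.7 CPM in ko, whereas the points of the other 8 genes overlap between the groups.

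B4galt6 was the 1 gene of the set whose ko and wild-type libraries did not overlap in CPM, a property of 19.9% of all tested genes. Since the difference of B4galt6 was the reason to look at the set, this count only describes it. In the other 8 genes the log2 fold change lay between -0.27 and 0.11 with a median of -0.12, and each of their 95% intervals included 0. These intervals reached from -0.66 to 0.42, so that none of the 8 included a change as large as that of B4galt6. Of all tested genes, 66.6% had a log2 fold change inside the range of these 8 genes.

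**Figure D2:**
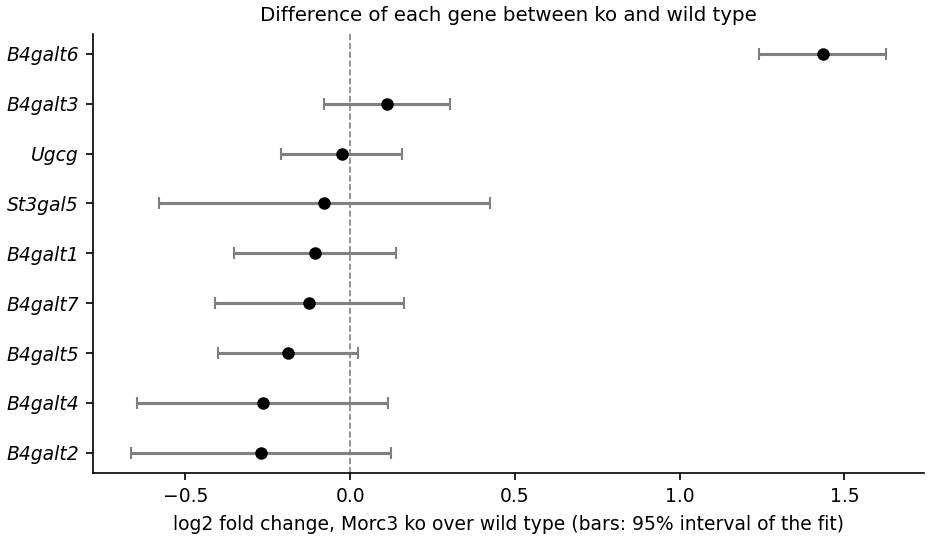
Log2 fold change of each of the 9 genes, Morc3 ko over wild type, with the 95% interval of the fit as bars and 0 as a dashed line. B4galt6 lies at 1.43 with an interval of 1.24 to 1.63, and the other 8 genes lie between -0.27 and 0.11 with intervals that cross 0.

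B4galt5, which carries out the same reaction as B4galt6, did not share its difference. B4galt5 had 37.8, 41.8 and 40.5 CPM in KO27-1, KO27-2 and KO27-3, and 43.7, 41.1 and 52.2 CPM in p42, p43 and p56. The groups overlapped, since KO27-2 was above p43. The means were 40.04 ± 2.06 CPM in ko and 45.7 ± 5.80 CPM in wild type, with a log2 fold change of -0.19 (SE 0.10, 95% interval -0.40 to 0.02). The log2 fold changes of B4galt6 and B4galt5 were 1.62 apart (SE 0.13, from both errors, taken as independent).

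The balance between both lactosylceramide synthase transcripts was turned round. B4galt6 made up 66.8%, 64.8% and 66.6% of the summed B4galt5 and B4galt6 counts in KO27-1, KO27-2 and KO27-3. In p42, p43 and p56 it made up 37.0%, 41.2% and 38.1%. B4galt5 counts exceeded B4galt6 counts in every wild-type library, and B4galt6 counts exceeded B4galt5 counts in every ko library. The mean share was 66.1% ± 1.11 in ko and 38.7% ± 2.19 in wild type, a difference of 27.3 percentage points. With counts divided by the exon length of each gene, the share was 59.1% ± 1.19 in ko and 31.9% ± 2.01 in wild type. The summed level of both genes was 113.8, 118.8 and 121.2 CPM in the ko lines and 69.4, 69.9 and 84.3 CPM in the wild-type cultures. The lowest ko sum was above the highest wild-type sum, and the ratio of the means was 1.58.

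**Figure D3:**
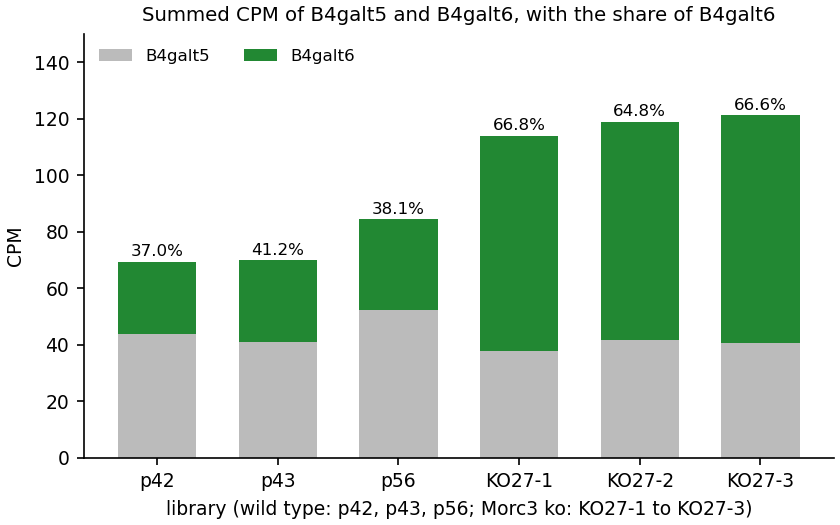
Level of B4galt5 (gray) and B4galt6 (green) stacked in each library, in CPM, with the share of B4galt6 in the summed counts of both genes printed above each bar. The share is 37.0% to 41.2% in the 3 wild-type libraries and 64.8% to 66.8% in the 3 ko libraries, while B4galt5 lies between 37.8 and 52.2 CPM in all 6.

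Ugcg, which makes the glucosylceramide used by both synthases, had nearly the same level in both groups. It had 43.3, 41.9 and 39.5 CPM in KO27-1, KO27-2 and KO27-3, and 39.5, 41.7 and 45.9 CPM in p42, p43 and p56. All 3 ko values lay within the range of the wild-type values. The log2 fold change was -0.03 (SE 0.08, 95% interval -0.21 to 0.16). In wild type, there were 0.650, 0.691 and 0.699 counts of B4galt6 for each count of Ugcg in p42, p43 and p56. In KO27-1, KO27-2 and KO27-3 there were 1.75, 1.84 and 2.04.

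St3gal5, which uses lactosylceramide, had the lowest level of the set. It had 3.23, 2.12 and 2.54 CPM in KO27-1, KO27-2 and KO27-3, and 2.90, 2.94 and 2.47 CPM in p42, p43 and p56. The groups overlapped, with a log2 fold change of -0.08 (SE 0.23, 95% interval -0.58 to 0.42). With 24 to 42 counts per library, this interval was the widest of the 9 genes, and a change within it was not detectable at this depth.

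The N-acetyllactosamine enzymes B4galt1 to B4galt4 and the linker enzyme B4galt7 overlapped between the groups. B4galt1, which also forms lactose synthase with alpha-lactalbumin, had 25.6 to 33.1 CPM in ko and 30.04 to 36.1 CPM in wild type, with a log2 fold change of -0.11 (SE 0.11). B4galt3 had 34.9 to 40.4 CPM in ko and 32.3 to 35.7 CPM in wild type, with a log2 fold change of 0.11 (SE 0.09), the 1 positive value among the 8 genes. B4galt2 had 7.90 to 9.33 CPM in ko. In wild type it had 11.1 and 12.5 CPM in p42 and p43 and 7.49 CPM in p56, so that p56 lay below every ko library. Its log2 fold change was -0.27 (SE 0.18). B4galt4, which prefers sulfated acceptors, had 4.63 to 6.75 CPM in ko and 5.95 to 7.24 CPM in wild type, with a log2 fold change of -0.27 (SE 0.17). B4galt7 of the proteoglycan linker had 9.26 to 11.8 CPM in ko and 10.4 to 11.9 CPM in wild type, with a log2 fold change of -0.12 (SE 0.13).

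The sum over the 7 B4galt genes was 215.2, 209.5 and 205.1 CPM in KO27-1, KO27-2 and KO27-3, against 164.5, 165.8 and 179.3 CPM in p42, p43 and p56. The groups did not overlap, and the ratio of the means was 1.24. Without B4galt6 the sum was 132.02 ± 7.38 CPM in ko and 141.03 ± 5.40 CPM in wild type, and the groups overlapped. The share of B4galt6 in the family was 35.3%, 36.7% and 39.3% in the ko lines and 15.6%, 17.4% and 17.9% in the wild-type cultures.

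Levels of different genes were compared as CPM per kb of exon, the combined length of all annotated exons of a gene. In wild type the order was B4galt5 (10.6 ± 1.35), Ugcg (8.13 ± 0.632), B4galt1 (7.63 ± 0.790), B4galt3 (6.31 ± 0.352), B4galt6 (4.97 ± 0.558), B4galt7 (3.94 ± 0.293), B4galt4 (2.11 ± 0.227), B4galt2 (2.06 ± 0.516) and St3gal5 (1.06 ± 0.0991), each in CPM per kb with its SD over 3 libraries. Ugcg and B4galt1 overlapped between libraries, as did B4galt4 and B4galt2, so these neighbors in the order did not differ beyond their spread. In ko, B4galt6 moved from place 5 to place 1 with 13.4 ± 0.422 CPM per kb, and B4galt5 followed with 9.29 ± 0.478. The other genes kept their wild-type order behind them, where Ugcg and B4galt1, B4galt1 and B4galt3, and B4galt4 and B4galt2 overlapped. When the length of the longest transcript was used instead, the wild-type order began with B4galt5, B4galt3, Ugcg and B4galt1, followed by B4galt7 and then B4galt6 in place 6.

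Promoter sequences were looked up for the set in RefSeq windows of 250 bases before and 50 bases after the start on GRCm38.p6. A window was found for 8 of the 9 genes, and the gene with no window was B4galt6. The windows were searched on both strands for the GC box (GGGCGG, overlapping matches counted), the CCAAT box (CCAAT) and the TATA box (TATAAA). A GC box occurred in 7 of the 8 windows, against 35.7% of 32851 windows of the genome. A CCAAT box occurred in 2 of 8, against 37.4%, and a TATA box in 0 of 8, against 13.6%. The windows also held many CpG pairs (C followed by G), from 8 in B4galt7 to 53 in Ugcg. The median over the 32851 windows was 7. Among the windows with a GC box, the lowest CpG number was 19, in B4galt3. The part of the CpG content in the number of GC boxes was not tested. B4galt5 had 7 GC boxes, B4galt1 had 5, B4galt4 had 1, and B4galt2, B4galt3, Ugcg and St3gal5 had 2 each, whereas B4galt7 had 0. Not all of these lay before the first annotated base of the gene. All boxes of B4galt5, B4galt1 and B4galt2 did, as did 1 each of B4galt3 and St3gal5. For B4galt4 and Ugcg the number was 0, and the Ugcg window held 0 bases before that point. For B4galt1, B4galt5 and Ugcg, the first annotated base used lay upstream of the RefSeq start of the gene, so that these numbers depend on the annotation. A match describes the letters of the window and is not a measured binding site. The bases before the start of B4galt5 (chr2:167349184-167349428, minus strand) and of St3gal5 (chr6:72097358-72097551, plus strand) are shown because these genes had the highest and the lowest level per kb in wild type. They are written from 5′ to 3′ on the strand of the gene, up to the first annotated base of the gene, with GC boxes in capitals. The other GC box of the St3gal5 window is not within the printed bases.
B4galt5: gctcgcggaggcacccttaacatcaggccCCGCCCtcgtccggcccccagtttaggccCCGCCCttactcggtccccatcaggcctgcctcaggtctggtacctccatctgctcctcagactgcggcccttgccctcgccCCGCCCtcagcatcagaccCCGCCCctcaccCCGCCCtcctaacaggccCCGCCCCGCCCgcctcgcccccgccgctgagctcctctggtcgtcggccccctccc
St3gal5: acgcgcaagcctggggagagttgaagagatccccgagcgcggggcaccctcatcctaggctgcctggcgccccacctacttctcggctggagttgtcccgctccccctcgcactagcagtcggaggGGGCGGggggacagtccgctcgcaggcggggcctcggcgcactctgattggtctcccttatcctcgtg

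The counts were then checked for reads that could belong to other genes. Runs of 50 bases of the annotated transcripts that also occur in transcripts of another gene made up 0.469% of B4galt6, and 4 runs of B4galt6 were shared with another gene of the set. None were found for B4galt1, B4galt4 and B4galt5. Such runs made up 25.6% of B4galt2, which overlaps Ccdc24 on the same strand, so that the B4galt2 counts are uncertain. They made up 12.9% of B4galt3, which overlaps Ppox on the other strand, 3.03% of B4galt7, 0.601% of Ugcg and 0.526% of St3gal5. On the same strand, St3gal5 also overlaps the annotated gene Gm29438, and B4galt1 overlaps Mir5123, Gm24112 and Gm25931. On the opposite strand of B4galt6, 8, 9 and 8 counts were found in KO27-1, KO27-2 and KO27-3 and 4, 2 and 5 in p42, p43 and p56. These opposite-strand counts were 0.958% of the counts of both strands in ko and 0.923% in wild type, so that they stood in the same proportion to the sense counts. B4galt4, B4galt5 and St3gal5 had 0 opposite-strand counts in every library.

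The surroundings of the glycolipid route were described with 6 gene lists, which held 106 genes, 88 of them tested. None of these genes rose and 2 fell at an adjusted p under 0.01 by edgeR, which is 2.27% of those tested. Of all tested genes, 1.28% were called in either direction and 0.859% were called as higher in ko. DESeq2 called 2 as well. An unadjusted p under 0.05 was reached by 13 genes, which is 14.8% of those tested, against 14.3% of all tested genes. The median log2 fold change over the 88 genes was -0.06. The ko and wild-type libraries did not overlap in 18.2% of them, against 19.9% of all tested genes.

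In the list of ceramide synthesis and transport, 18 of 23 genes were tested, 0 rose and 1 fell, with a median log2 fold change of -0.01. The gene that fell was Cers4, a ceramide synthase that joins a fatty acid to the sphingoid base. Cers4 had 18.1 ± 1.44 CPM in ko and 29.7 ± 3.26 CPM in wild type, and its log2 fold change was -0.71 (SE 0.11, adjusted p = 0.00370 by edgeR). The adjusted p by edgeR was 0.0120, 0.0466 and 0.0444 without KO27-1, KO27-2 and KO27-3, and 0.0183 and 0.0161 without p42 and p43, so that the call was lost in each of these fits, at log2 fold changes of -0.78 to -0.66. Degs1, the desaturase that makes ceramide from dihydroceramide, had the highest level of the list, with 116.4 CPM in ko and 116.8 CPM in wild type.

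Of the branches that lead on from lactosylceramide and galactosylceramide, 13 of 20 genes were tested and none was called by edgeR, with 3 at an unadjusted p under 0.05 and 0 called by DESeq2. B3galnt1 of the globoside branch, which had the highest level of this list, had 31.7 ± 2.27 CPM in ko and 23.7 ± 0.675 CPM in wild type, and its log2 fold change was 0.42 (SE 0.09). Its adjusted p by edgeR was 0.0283, with a range of 0.00703 (without p56) to 0.179 over the alternatives. Ugt8a, which makes galactosylceramide, had the largest log2 fold change of the list, 0.55 (SE 0.16), at 8.45 ± 1.06 CPM in ko and 5.80 ± 0.841 CPM in wild type and an adjusted p by edgeR of 0.124. In glycolipid degradation, 15 of 17 genes were tested and none was called by edgeR or DESeq2, with 1 at an unadjusted p under 0.05 and a median log2 fold change of -0.02. Its highest level was that of Asah1, the lysosomal acid ceramidase, with 146.4 CPM in ko and 146.8 CPM in wild type. Its largest log2 fold change was that of Gm2a, the GM2 activator protein, at -0.20 (SE 0.18, adjusted p = 0.696 by edgeR).

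All 15 genes of the sugar donors and carriers were tested, of which 0 rose and 1 fell, with a median log2 fold change of -0.09. The gene that fell was Ugdh, which makes UDP-glucuronate from UDP-glucose. Ugdh had 29.4 ± 1.76 CPM in ko and 42.9 ± 3.57 CPM in wild type, with a log2 change of -0.54 (SE 0.09, adjusted p = 0.00647 by edgeR). Without KO27-1, KO27-2, KO27-3 or p42 the adjusted p of Ugdh by edgeR was 0.0372, 0.0271, 0.0617 and 0.0244, and the call was lost at log2 fold changes of -0.59 to -0.50. Nans, the sialic acid synthase, had the highest level of the list, with 118 ± 4.02 CPM in ko and 118 ± 4.45 CPM in wild type.

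Of the proteoglycan linker list, in which B4galt7 acts, 12 of 13 genes were tested and none was called by edgeR or DESeq2, with 2 at an unadjusted p under 0.05. Ext1, a heparan sulfate polymerase subunit, had the highest level, with 59.2 ± 3.19 CPM in ko and 53.7 ± 6.08 CPM in wild type. The largest log2 fold change was that of Pxylp1, the xylose phosphatase of the linker, at -0.44 (SE 0.23, adjusted p = 0.433 by edgeR). Of the list of poly-N-acetyllactosamine and N-glycan antennae, 15 of 18 genes were tested and none was called by either tool, with 3 at an unadjusted p under 0.05. B3gnt2, which alternates with B4galt enzymes in making poly-N-acetyllactosamine, had the highest level, with 61.2 ± 2.80 CPM in ko and 61.8 ± 1.86 CPM in wild type. The largest log2 fold change was that of the related gene B3gnt3, at -0.61 (SE 0.45, adjusted p = 0.619 by edgeR), with under 2 CPM in either group mean. The median log2 fold changes of the linker and antennae lists were -0.10 and -0.09.

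**Figure D4:**
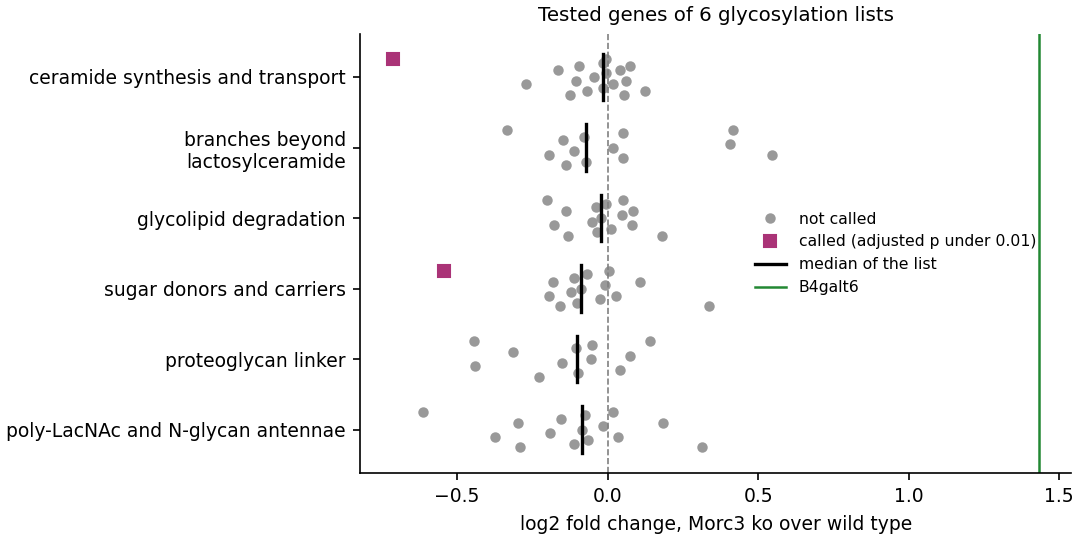
Log2 fold change, Morc3 ko over wild type, of the 88 tested genes of the 6 lists, with the list median as a black bar, the called genes as purple squares and B4galt6 as a green line. The 2 called genes, Cers4 at -0.71 and Ugdh at -0.54, lie below 0, and all 88 genes lie to the left of B4galt6.

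B4galt6 lies on chromosome 18 from position 20684599 to 20746404 on the minus strand (GRCm38, the assembly that mm10 names) and overlaps no other gene of the GENCODE annotation. Within 500 kb there were 12 other gene rows, of which 6 were tested. The call threshold was passed by 1 of these 6, against 1.28% of all tested genes. An unadjusted p under 0.05 by edgeR was reached by 3 of them, against 14.3% of all tested genes. The called gene was Dsg2 (desmoglein 2, a cell adhesion protein of desmosomes), which ends 80.1 kb from B4galt6. Dsg2 had 49.4, 44.7 and 48.3 CPM in KO27-1, KO27-2 and KO27-3 and 28.7, 26.04 and 33.7 CPM in p42, p43 and p56. The groups did not overlap, and the log2 fold change was 0.69 (SE 0.10, adjusted p = 0.00243 by edgeR). Without KO27-1, KO27-2, KO27-3 or p42, the adjusted p of Dsg2 by edgeR was 0.0187, 0.0139, 0.0265 and 0.0115, and the call was lost at log2 fold changes of 0.66 to 0.73. The other desmoglein genes in the window, Dsg1a, Dsg1b, Dsg1c, Dsg3 and Dsg4, were not tested and had at most 0.463 CPM in any library. Ttr, the transthyretin gene and the nearest to B4galt6, was at 0 in all libraries.

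On the other side, Trappc8, a subunit of a vesicle tethering complex, had a log2 fold change of 0.06 (SE 0.06, adjusted p = 0.728 by edgeR) and lies 70.8 kb from B4galt6. Rnf125, a ubiquitin ligase gene 198 kb away, had 22.6 ± 0.449 CPM in ko and 16.7 ± 1.13 CPM in wild type, a log2 fold change of 0.43 (SE 0.10) that did not pass the threshold (adjusted p = 0.0358 by edgeR, 0.0255 to 0.185 over the alternatives). Rnf138, another ubiquitin ligase gene, had a log2 fold change of 0.19 (SE 0.08, adjusted p = 0.330 by edgeR). Farther out, Mep1b had 0.01 (SE 0.42) and Garem had -0.02 (SE 0.18), with adjusted p-values by edgeR of 0.997 and 0.973. The median log2 fold change of the 302 tested genes of the chromosome was 0.03.

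**Figure D5:**
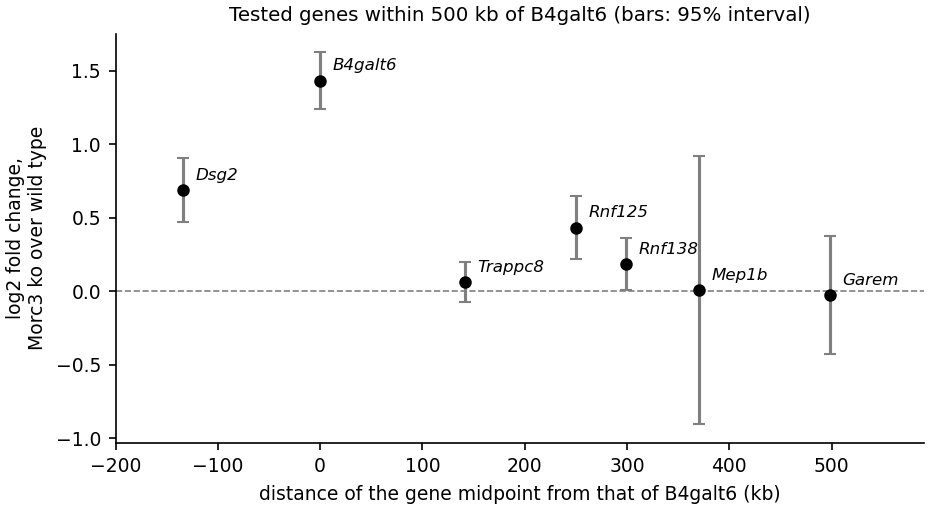
Log2 fold change, Morc3 ko over wild type, of B4galt6 and the 6 tested genes within 500 kb, against the distance between gene midpoints in kb, with 95% intervals as bars. B4galt6 has the largest value, 1.43, followed by Dsg2 at 0.69 and Rnf125 at 0.43, and Trappc8 between B4galt6 and Rnf125 lies at 0.06.

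Finally, genes were ranked by how closely their pattern over the 6 libraries followed that of B4galt6, measured as the Euclidean distance between log2 CPM values centered per gene. The 5 nearest genes were Apcdd1, an inhibitor of Wnt signaling, at a distance of 0.19, Gm5595 at 0.28, Tbc1d13, which has a Rab GTPase-activating domain, at 0.29, Sfrp2, a secreted Wnt-binding protein, at 0.31 and Frmd4b, which has a FERM domain, at 0.32. The median distance over all 12221 other tested genes was 1.80. These genes were picked for a like difference between the groups, and their log2 fold changes of 1.26 to 1.49 follow from that choice. Among the other 8 genes of the set, the nearest was B4galt3 at 1.67 and the farthest was B4galt2 at 2.18.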

How the data were processed

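Total RNA was treated with DNase by the authors, who then depleted ribosomal RNA and prepared strand-specific libraries. The authors aligned the paired reads to mm10 with STAR, which also counted reads per gene, and the deposited files hold these raw counts, 1 library per file, in 3 columns (unstranded and each strand). The gene annotation is not given in the sources used here. STAR counts only reads that map to 1 place and overlap 1 gene. Reads assigned to no gene (36.2% to 37.7% per library) stayed out of library sizes and tests. Each file held columns of 1 sample only.

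Column 4 was used as the sense strand. CPM were computed from TMM-scaled library sizes, and means are given with SD over 3 libraries. All genes were fitted with edgeR 4.0.16 (quasi-likelihood, TMM, filterByExpr with a minimum count of 10 and minimum total of 15, group as the only term) in R 4.3.3, with two-sided p-values adjusted by Benjamini-Hochberg over 12222 genes. The call threshold, 0.01, is that of the study. Fold changes use a prior count of 0.125. Intervals and SE come from this fit. DESeq2 1.42.0 was an alternative. P-values set the group difference against the spread between libraries, which the fit estimates over both groups together. This spread may be technical and in ko also includes spread between clones. The fit was tested on simulated counts.

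Positions came from RefSeq (GRCm38.p6), in which the current symbol found 22539 rows and an older name 1351, while 164 had no entry. Exon lengths, strand and transcripts came from GENCODE vM21, and promoter windows from RefSeq.

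The 9 genes, the 6 lists, the markers and the tests were chosen with earlier results of these data known. The text names the 9 genes, Morc3, in each list the called genes (up to 4) and, with fewer than 2 called, the gene with the highest level or the largest absolute log2 fold change, the tested genes within 500 kb of B4galt6, and the 5 genes nearest to it in pattern. Genes of the marker lists, the untested neighbors and the overlapping genes are named outside this rule. Repeat families were not analysed here.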

Additional observations from a re-analysis of the deposited data

How the results depend on the processing

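The log2 fold change of B4galt6 stayed between 1.36 and 1.52 over all alternatives (DESeq2 size factors in edgeR, DESeq2, no filter, counts that ignore strand, each library left out), and the difference in its share of the B4galt5 and B4galt6 counts stayed between 26.4 and 28.5 percentage points. The values of Ugcg (-0.07 to 0.04) and St3gal5 (-0.25 to 0.06) crossed 0. With 1 library left out, the log2 fold change ranged from -0.18 to -0.00 for B4galt1, -0.45 to -0.11 for B4galt2, 0.05 to 0.16 for B4galt3, -0.41 to -0.14 for B4galt4, -0.26 to -0.08 for B4galt5 and -0.22 to -0.04 for B4galt7. With longest-transcript lengths, B4galt6 took place 6 in the wild-type order, B4galt3 moved from 4 to 2, Ugcg from 2 to 3, B4galt1 from 3 to 4 and B4galt7 from 6 to 5, and without p56 B4galt2 and B4galt4 changed places.

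The number of called genes, 156 by edgeR, was 254 by DESeq2, 286 with no filter and 331 at an adjusted p under 0.05, and 72 to 385 with 1 library left out. The 385 were reached without p56, whereas leaving out any other library gave 72 to 117. Of the list genes, 2 were called, and 0 to 3 with 1 library left out. The number of called list genes was 0 without KO27-1, KO27-2, KO27-3 or p42, 1 without p43 and 3 without p56. Of the genes within 500 kb of B4galt6, 1 was called, against 2 at an adjusted p under 0.05 and 0 to 1 with 1 library left out. Fits with a library left out hold fewer samples, and the number of called genes fell in all of them but the fit without p56. The cause of these changes was not tested. With 3 libraries per group and 24 to 42 counts per library, small changes of St3gal5 could not be detected. No paired analysis was possible because ko and wild-type libraries have no replicate numbers in common in the labels.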
